A study of Mus musculus with 2 samples.

Results

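The genes described here are 42 cell cycle genes of the mouse, 18 that act in DNA replication and 24 that act in mitosis, chosen by symbol; all 42 were found once each among the 33696 features counted. They were followed across cell classes of healing skin in 2 single-cell RNA libraries. Both libraries came from wild type C57BL/6 male mice with full-thickness excisional wounds of 10 mm on the back, and all cells of the wound were collected on day 6. One library was made from mice of 2 months (young) and the other from mice of 24 months (aged), each from several animals pooled per sample; the study asked how senescence in the wound differs with age. Each age has a single library and no replicate, so no difference below was tested: age, the pooled animals and the making of the library cannot be told apart, and every interval is a 95% interval that covers counting error only.

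A cell that commits to divide first loads the MCM helicase onto replication origins, raises its supply of nucleotides and copies its DNA behind the sliding clamp PCNA. It then builds up the cyclin B and CDK1 kinase, condenses its chromosomes, attaches them to the spindle at the centromeres, and exits when the anaphase-promoting complex destroys the cyclins. Most replication genes are transcribed under E2F factors before and during S phase, whereas mitosis genes are transcribed later, in G2 and M phase, under the MuvB complex with B-MYB and FOXM1. In skin wounds fibroblasts, endothelial cells and immune cells are known to proliferate while the granulation tissue forms, and neutrophils are known not to divide.

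After removal of barcodes with few genes or many mitochondrial reads, 4661 young and 4210 aged cells remained, with medians of 15566 and 13776.5 UMIs (molecules counted once each) per cell. Classes were gated on marker genes that hold no cell cycle gene, and carry the ending "-like"; among the 10 genes with the highest fold in a class, 3 of the fibroblast-like and 5 of the macrophage/monocyte-like class were its own markers, with 0 of other lists. The fibroblast-like class held 1507 young and 1413 aged cells, the macrophage/monocyte-like class 852 and 1223, the neutrophil-like class 1206 and 781, the T/NK-like class 325 and 44, and the endothelial-like class 40 and 43. Another 471 young and 551 aged cells passed no gate, and 164 and 108 cells that passed more than 1 gate were kept apart. Of the fibroblast-like cells, 27 young and 21 aged lay within 1.5-fold of the cut, and of the macrophage/monocyte-like cells 80 and 72. The libraries shared 3 barcode sequences. Levels are UMIs scaled to a class total of 1e6 (CPM), and a ratio is the aged level over the young level.

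Over all cells the 24 mitosis genes summed to 325 CPM in young and 494 CPM in aged wounds, and their ratio was 1.52 (1.502 to 1.54). The 18 replication genes summed to 230 and 294 CPM, a ratio of 1.28 (1.25 to 1.30). Of the 42 genes, 17 were at least 1.5-fold higher in the aged library and 0 were at least 1.5-fold lower; among all 20121 genes with enough UMIs, 11% were higher and 10.5% lower by that rule. With edgeR TMM scaling, which moved the median log2 ratio of all genes by -0.11 in this comparison, 10 of the 42 were higher. The share over all genes was not taken with that scaling. With each class weighted as in the young library, the aged levels would have been 1.33 times the young for replication and 1.52 times for mitosis.

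The fibroblast-like and macrophage/monocyte-like classes had ratios on opposite sides of 1 for mitosis genes, a difference that was not tested. Mitosis transcripts were more abundant in aged than in young fibroblast-like cells, at 577 against 307 CPM, and less abundant in aged than in young macrophage/monocyte-like cells, at 133 against 253 CPM. The highest levels were in T/NK-like cells, at 962 CPM young and 1474 CPM aged, and in endothelial-like cells, at 927 and 1240 CPM. The 10 highest endothelial-like cells held 97.6% of these UMIs of their class in the young and 95.9% in the aged library. Neutrophil-like cells had the lowest levels, at 66.1 and 57.9 CPM, and serve below as the background class.

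**Figure D1:**
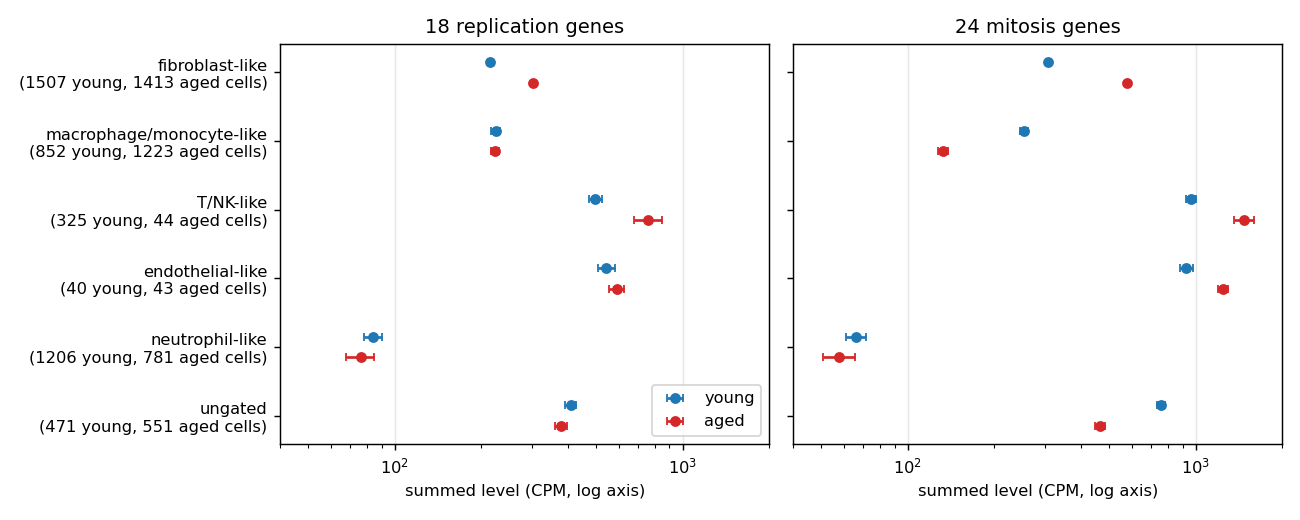
Summed levels of the 18 replication genes (left) and the 24 mitosis genes (right) in 6 cell classes, in CPM of the class on a log axis; points are the young and aged libraries and bars are 95% Poisson intervals that cover counting error only. The aged point lies right of the young one for mitosis genes in fibroblast-like cells (577 against 307 CPM) and left of it in macrophage/monocyte-like cells (133 against 253 CPM).

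In fibroblast-like cells nearly all members were higher in the aged library, and mitosis genes more so than replication genes. The mitosis sum had a ratio of 1.88 (1.85 to 1.91), and the replication sum, at 215 CPM young and 303 CPM aged, a ratio of 1.41 (1.38 to 1.44). At least 1.5-fold higher were 22 of 24 mitosis genes and 7 of 18 replication genes, 29 of 42 in all, and 0 were lower by that rule. Among all 18007 genes with at least 20 UMIs in this class, 11.4% were higher and 8.46% lower. The median log2 ratio was 0.98 over the mitosis genes, 0.52 over the replication genes and 0.09 over all genes. The mitosis transcripts thus made up 1.43 UMIs for each replication UMI in the young class and 1.91 in the aged class. The 8 dissociation stress genes, which are induced when tissue is digested, summed to 4133 CPM in young and 2856 CPM in aged fibroblast-like cells; their part in the result was not tested.

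Among the licensing genes, the subunits of the MCM helicase that unwinds DNA were higher in aged fibroblast-like cells. Mcm5 went from 2.87 to 5.18 CPM (ratio 1.80, 1.51 to 2.15) and Mcm2 from 3.08 to 5.47 CPM (1.78, 1.502 to 2.11). Mcm3, Mcm4 and Mcm7 had ratios of 1.66, 1.60 and 1.65, and Mcm6 1.38. The factors that load the helicase hardly differed: Cdc6 was at 2.70 and 2.88 CPM (1.07, 0.874 to 1.31) and Cdt1 at 4.70 and 5.31 CPM (1.13, 0.972 to 1.31). Gins2, a subunit of the active helicase, had a ratio of 1.43. The E-type cyclins open S phase, and Ccne1 was the only member with a ratio below 1, at 4.63 and 4.30 CPM (0.929, 0.792 to 1.09), while Ccne2 stood at 1.29. The intervals of Ccne1, Cdc6 and Cdt1 include 1, and those of the other 39 members lie above it.

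The genes of nucleotide supply lay in between. Rrm1 and Rrm2 encode the ribonucleotide reductase subunits; Rrm1 was at 26.05 and 39.0 CPM (1.497, just under the 1.5-fold rule) and Rrm2 at 8.84 and 12.7 CPM (1.43, 1.29 to 1.59). Tyms, the thymidylate synthase, had a ratio of 1.41. Pcna, the sliding clamp, was the most counted replication gene and among the least different, at 46.6 and 53.2 CPM (1.14, 1.09 to 1.20). Pclaf, which binds PCNA, differed more, at 26.5 and 44.5 CPM (1.68, 1.59 to 1.78). Hells and Uhrf1, which act on chromatin behind the fork, had ratios of 1.39 and 1.55.

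The largest ratios belonged to a mitotic kinase and to genes of mitotic protein destruction. Plk1, the polo kinase of mitotic entry and exit, went from 148 UMIs young to 503 aged, 2.17 and 6.78 CPM (3.13, 2.60 to 3.78). Cdc20, which activates the anaphase-promoting complex, was at 3.35 and 9.39 CPM (2.80, 2.41 to 3.27). Cdca3, which triggers the destruction of a mitotic inhibitor, was at 9.77 and 23.8 CPM (2.43, 2.23 to 2.67). Next came Bub1b of the spindle checkpoint (2.37) and Cdk1, the kinase that drives entry into mitosis, at 11.5 and 24.999 CPM (2.17, 2.00 to 2.37). Ube2c, the ubiquitin-conjugating enzyme of the same complex, had a ratio of 2.00. Of the cyclins, Ccna2 stood at 1.96, Ccnb1 at 4.78 and 8.60 CPM (1.80, 1.57 to 2.06) and Ccnb2 at 1.68.

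Genes of chromosomes, centromeres and spindle were higher with less spread. Mki67, which coats mitotic chromosomes and is the usual proliferation marker, went from 38.0 to 69.5 CPM (1.83, 1.74 to 1.92). Top2a, the topoisomerase that untangles sister chromatids, went from 49.6 to 81.5 CPM (1.65, 1.58 to 1.72). Cenpf of the outer kinetochore was at 12.6 and 25.1 CPM (1.99, 1.84 to 2.16). The centromeric histone Cenpa, the kinetochore motor Cenpe, Birc5 of the chromosomal passenger complex and the spindle factor Tpx2 had ratios between 2.01 and 2.06, and the kinesins Kif11 and Kif23 1.91 and 2.11. Aurka, the spindle pole kinase, and Nusap1, a spindle microtubule protein, were the 2 mitosis genes under the 1.5-fold rule, at 1.32 and 1.41. The remaining members, Aurkb, Bub1, Anln and Cdca8, lay between 1.64 and 1.65.

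**Figure D2:**
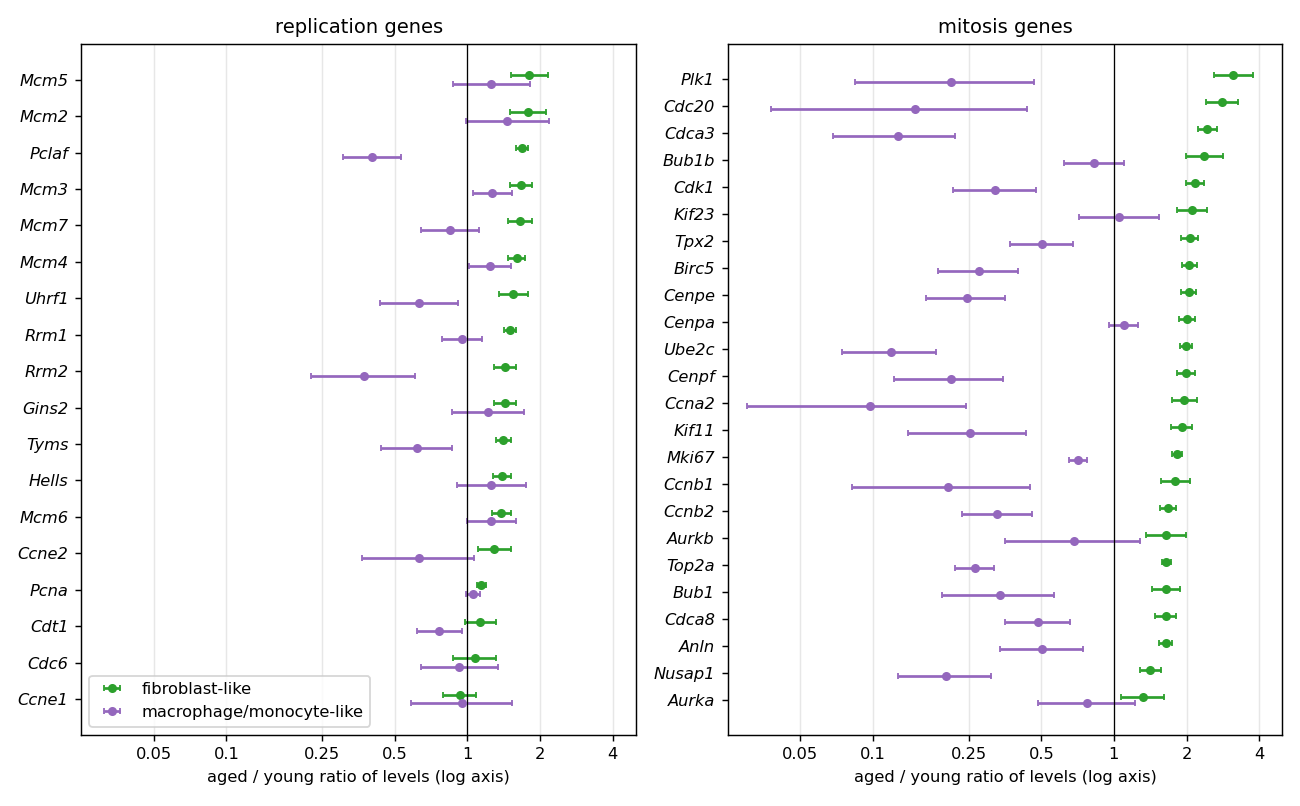
Aged over young ratio of each of the 18 replication genes (left) and 24 mitosis genes (right), ordered by the ratio in fibroblast-like cells, on a log axis; bars are 95% exact intervals of the ratio that cover counting error only. In fibroblast-like cells the points run from 0.929 (Ccne1) to 3.13 (Plk1), and in macrophage/monocyte-like cells most mitosis genes lie left of 1, down to 0.097 (Ccna2); the macrophage/monocyte-like ratios rest largely on 10 young cells, as the text gives.

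The promoters of the 3 members with the highest and the 3 with the lowest ratio in fibroblast-like cells are shown, because motif content differs between the mitosis and the replication list. Sequences are RefSeq windows of GRCm38.p6, each 300 bases on the gene's strand from 250 before to 50 after the gene's start. Capitals mark matches on either strand to the cell cycle homology region CHR (TTTGAA), to the CCAAT box (CCAAT) and to an E2F site (TTTCCCGC, TTTCGCGC, TTTGCCGC or TTTGGCGC); the motifs searched do not overlap each other in these windows. Plk1 lies at chr7:122159185-122159484 on the plus strand, Cdc20 at chr4:118437294-118437593 on the minus strand, Cdca3 at chr6:124829926-124830225 on the plus strand, Ccne1 at chr7:38107441-38107740 on the minus strand, Cdc6 at chr11:98907901-98908200 on the plus strand and Cdt1 at chr8:122567765-122568064 on the plus strand.
Plk1: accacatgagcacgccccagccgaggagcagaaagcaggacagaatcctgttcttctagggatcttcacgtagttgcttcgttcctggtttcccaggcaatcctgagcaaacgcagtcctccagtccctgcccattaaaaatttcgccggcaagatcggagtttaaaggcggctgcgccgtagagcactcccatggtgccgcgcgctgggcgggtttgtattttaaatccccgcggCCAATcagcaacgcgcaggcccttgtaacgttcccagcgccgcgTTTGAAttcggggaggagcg
Cdc20: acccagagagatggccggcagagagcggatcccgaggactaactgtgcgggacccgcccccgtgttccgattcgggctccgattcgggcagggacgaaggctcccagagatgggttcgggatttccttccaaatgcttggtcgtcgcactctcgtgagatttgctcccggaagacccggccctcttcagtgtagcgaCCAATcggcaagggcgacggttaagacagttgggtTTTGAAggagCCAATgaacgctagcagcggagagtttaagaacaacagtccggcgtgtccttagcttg
Cdca3: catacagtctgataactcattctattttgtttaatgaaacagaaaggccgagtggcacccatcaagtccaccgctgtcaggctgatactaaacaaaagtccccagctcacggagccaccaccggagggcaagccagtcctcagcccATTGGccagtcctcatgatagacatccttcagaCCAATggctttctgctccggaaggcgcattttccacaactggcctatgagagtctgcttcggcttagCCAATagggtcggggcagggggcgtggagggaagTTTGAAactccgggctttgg
Ccne1: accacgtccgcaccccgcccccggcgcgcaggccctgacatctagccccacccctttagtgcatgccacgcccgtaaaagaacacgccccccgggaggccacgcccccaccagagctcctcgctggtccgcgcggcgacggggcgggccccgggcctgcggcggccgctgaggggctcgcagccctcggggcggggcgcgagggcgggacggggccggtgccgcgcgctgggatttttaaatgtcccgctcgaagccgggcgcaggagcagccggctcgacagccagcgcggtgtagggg
Cdc6: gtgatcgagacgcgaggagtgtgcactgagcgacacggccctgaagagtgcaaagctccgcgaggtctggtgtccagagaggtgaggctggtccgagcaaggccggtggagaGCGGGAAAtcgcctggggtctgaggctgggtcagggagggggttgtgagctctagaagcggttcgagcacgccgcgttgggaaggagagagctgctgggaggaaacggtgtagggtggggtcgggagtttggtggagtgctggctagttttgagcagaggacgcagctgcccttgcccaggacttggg
Cdt1: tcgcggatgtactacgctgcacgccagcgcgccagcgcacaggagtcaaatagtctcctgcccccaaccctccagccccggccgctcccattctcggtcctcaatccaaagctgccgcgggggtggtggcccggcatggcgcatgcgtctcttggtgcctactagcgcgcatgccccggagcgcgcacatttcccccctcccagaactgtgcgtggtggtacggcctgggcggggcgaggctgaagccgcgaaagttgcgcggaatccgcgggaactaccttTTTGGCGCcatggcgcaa

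Plk1, Cdc20 and Cdca3 each hold 1 CHR match with at least 1 CCAAT match upstream of it and 0 E2F matches. Cdc6 and Cdt1 each hold 1 E2F match and 0 CHR matches, and Ccne1 holds 0 matches to any of the 3 motifs in this window. Windows were found for 36 of the 42 members, 38 windows in all since Mcm7 and Uhrf1 have more than 1; Ccna2, Tpx2, Ccne2, Mcm4, Aurkb and Gins2 were not matched. A CHR match was present in 16 of 21 mitosis windows (76.2%), in 1 of 17 replication windows (5.88%) and in 17.9% of all 32851 RefSeq windows. An E2F match was present in 1 of 21 mitosis windows (4.76%), in 9 of 17 replication windows (52.9%) and in 2.26% of all. The CCAAT box was common in both, with 18 of 21 and 12 of 17 windows against 37.4% of all, and 15 of 21 mitosis windows (71.4%) held both CHR and CCAAT, against 6.95% of all. Within the mitosis genes, the median ratio in fibroblast-like cells was 1.99 for the 16 with a CHR match and 1.80 for the 5 without, with ranges of 1.32 to 3.13 and 1.41 to 2.05 that overlap. A match describes these letters and does not show binding.

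**Figure D3:**
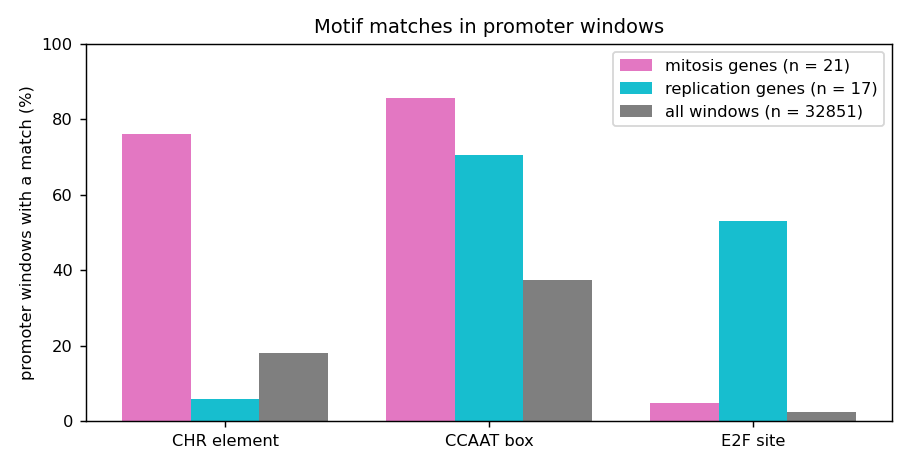
Share of promoter windows with at least 1 match, in percent, for the CHR element, the CCAAT box and the E2F site; bars are 21 windows of mitosis genes, 17 of replication genes and all 32851 RefSeq windows. The CHR bar is highest for mitosis genes (76.2%) and the E2F bar for replication genes (52.9%).

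To count the cells with several of these transcripts at one depth, every cell was thinned to 2000 UMIs and said to hold several mitosis transcripts if at least 3 of the 24 genes had a UMI. In fibroblast-like cells this held for 61 of 1478 young cells (4.13%, 3.17 to 5.27) and 120 of 1385 aged cells (8.66%, 7.24 to 10.3), a share ratio of 2.10 (1.53 to 2.91). The cells that met the rule, which itself sets a minimum, held a mean of 7.51 mitosis UMIs in the young and 8.83 in the aged library. Without thinning, the shares were 14.997% and 27.6%, at median depths of 42403 and 49864 UMIs. The same rule for replication genes was met by 33 young (2.23%) and 61 aged cells (4.40%), a share ratio of 1.97. In the background class, neutrophil-like cells, 1 of 1143 young and 0 of 722 aged cells met the mitosis rule, and a count of 0 allows a share of up to 0.416%; their median depths were 5832.5 and 4410 UMIs. Thinning left out 29 young and 28 aged fibroblast-like cells, and 63 and 59 neutrophil-like cells.

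**Figure D4:**
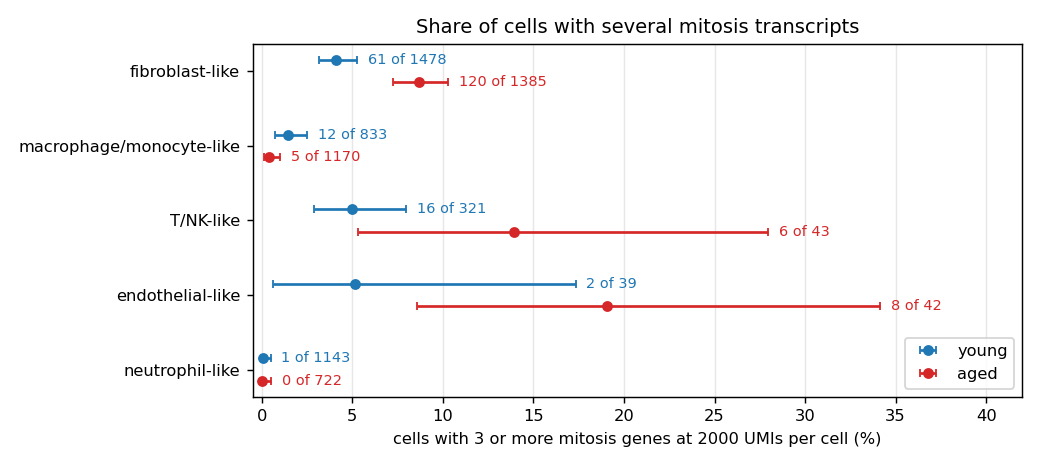
Percent of cells with UMIs of 3 or more of the 24 mitosis genes after thinning to 2000 UMIs, for 5 classes in the young and aged libraries; bars are 95% Clopper-Pearson intervals that cover counting error only, and the counts of cells stand beside them. The fibroblast-like intervals do not overlap (4.13% young, 8.66% aged), and the neutrophil-like points lie at or near 0.

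Mitosis transcripts in fibroblast-like cells sat together in few cells. At full depth Ube2c was seen in 131 young and 246 aged cells, and 98.2% and 98.9% of its UMIs were in cells with at least 3 other mitosis genes. For Mki67 these shares were 94.0% and 96.4%, for Top2a 94.9% and 97.0%, and for Ccnb1 90.2% and 99.5%. In 662 of 1507 young and 441 of 1413 aged cells no mitosis gene had a UMI. The 10 cells with most mitosis UMIs held 28.1% of them in the young and 16.7% in the aged library, and without those cells the ratio of the mitosis sum was 2.17. After thinning to 2000 UMIs, 59.7% (young) and 76.6% (aged) of Mki67 UMIs and 85.2% and 89.8% of Ube2c UMIs lay in cells with at least 3 other mitosis genes. At that depth the shares were 15.9% and 17.6% for Pcna and 57.8% and 55.7% for Pclaf. Over the genes with at least 10 thinned UMIs, the median share was 63.9% young and 75.8% aged for 18 and 21 mitosis genes, and 18.3% and 26.9% for 15 and 16 replication genes; in the young library the ranges of both lists overlap.

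The fibroblast-like cells with several mitosis transcripts also differed from the others in genes outside the cell cycle lists. They were deeper before thinning, with medians of 73830 against 42117 UMIs in the young and 76751 against 49448 in the aged library. The 7 fibroblast markers, mostly matrix genes, summed to 42844 against 70491 CPM in the young and 47208 against 60991 CPM in the aged library. The contractile list of Acta2, Tagln, Crabp1 and Prss35 went the other way, at 828 against 236 CPM young and 563 against 224 CPM aged. The interferon-induced genes were at 16.4 against 278 CPM young and 246 against 1032 CPM aged, and the dissociation stress genes at 3631 against 4591 CPM young and 2563 against 3256 CPM aged. Endothelial markers were at 41.0 against 11.3 CPM young and 12.5 against 24.9 CPM aged; the part of these lists in the result was not tested. Markers of macrophages stood at 49.2 and 75.0 CPM in the cells with mitosis transcripts, against 78.7 and 65.2 CPM in the others. Cdkn1a encodes p21, an inhibitor of cyclin-dependent kinases that is also used as a senescence marker, and was not lower in the cells with mitosis transcripts: 516 CPM (397 to 661) against 335 CPM (314 to 357) in the young library, and 388 (313 to 475) against 283 CPM (262 to 304) in the aged library. Cdkn2a, the locus of the inhibitor p16, was read after thinning to 2000 UMIs. Of the young cells with several mitosis transcripts 0 of 61 held it, which allows a share of up to 4.92%. Of the aged ones 3 of 120 did (2.5%, 0.519 to 7.13). Among the remaining fibroblast-like cells the young share was 2.68% (38 of 1417, 1.90 to 3.66). The aged share was 1.03% (13 of 1265, 0.548 to 1.75). The young limit lies above 2.68% and the aged intervals overlap, so neither library shows a Cdkn2a difference beyond counting error.

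Subsets of the fibroblast-like class were gated on short marker lists, and 221 young and 193 aged cells lay within 1.5-fold of a subset cut. The subset with Acta2 and Crabp1, genes of contractile wound fibroblasts, had the highest mitosis level in both libraries among subsets with over 30 cells in each, at 989 CPM in 86 young and 1166 CPM in 120 aged cells, and the smallest ratio (1.18, 1.14 to 1.22). Its members with several mitosis transcripts made up 18 of 85 young (21.2%) and 28 of 119 aged cells (23.5%), with intervals that overlap. In this subset 3 of 24 mitosis genes and 8 of 18 replication genes were at least 1.5-fold higher in the aged library, and Ccne1 was lower (0.634); 11.2% of 12326 genes were higher and 10.4% lower. Mcm5 had its highest ratio there, 4.61 against 12.1 CPM (2.62, 1.65 to 4.32), followed by Mcm3 (1.98) and Mcm2 (1.77), whereas Mki67 stood at 1.26, Top2a at 1.11 and Cenpf and Ccnb1 at 0.908 and 0.892.

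The subsets with low mitosis levels in the young library had the highest mitosis ratios, in which the young level is the divisor. Cells with Cxcl14 and C7 went from 179 to 558 CPM (3.12, 2.96 to 3.28) in 280 young and 182 aged cells, with 22 of 24 mitosis genes higher by the 1.5-fold rule against 10.2% of 13035 genes, and 1 of 42 members lower against 8.79%. Plk1 (6.07, 3.36 to 11.7), Kif23 (5.51) and Cdc20 (5.48) led, while Cdc6 was the lower one (0.385, 0.190 to 0.724) and Ccne1 and Cdt1 stood at 0.741 and 0.911. In this subset cells with several mitosis transcripts were 5 of 279 young (1.79%) and 12 of 180 aged (6.67%). These few cells held 70% and 91.0% of the subset's mitosis UMIs after thinning. Cells with Pi16 and Dpp4, markers of fascia and adventitial fibroblasts, went from 158 to 330 CPM (2.09, 1.95 to 2.23), again with 22 of 24 mitosis genes higher, against 12.4% of 12464 genes, and 0 of 42 members lower, against 5.83%. Kif23, Mcm3 and Cenpf had ratios of 4.04, 3.90 and 3.88 in that subset, and Rrm2, Pcna and Hells between 1.26 and 1.30.

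Cells with interferon-induced genes (Ifit1, Ifit3, Rsad2, Isg15) numbered 101 young and 305 aged. Their mitosis level went from 109 to 281 CPM (2.57, 2.33 to 2.84), while the replication level was 163 and 168 CPM (1.03, 0.946 to 1.13). Of the 23 mitosis genes with enough UMIs, 19 were higher, against 14.1% of 12703 genes. Of the 18 replication genes 2 were higher and 7 lower, against 14.1% and 9.32%. The lower ones included Rrm2 (0.571), Uhrf1 (0.590) and Tyms (0.642). Only 2 of the 18 intervals lay below 1, and 2 lay above it. Here the young sums rest on few molecules: Ube2c had 7 young UMIs against 366 (14.5, 6.97 to 36.3), Ccnb1 4 against 75 and Kif23 1 against 68. Only 1 of 101 young and 10 of 305 aged interferon cells had several mitosis transcripts. The cells outside every subset gate, 812 young and 620 aged, went from 301 to 625 CPM (2.07, 2.03 to 2.12), and 37 of 42 members were higher there, against 12.9% of 16222 genes, and 0 lower, against 9.67%. The subset with Coch and Wif1 held 40 young cells and only 3 aged cells and is not compared.

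**Figure D5:**
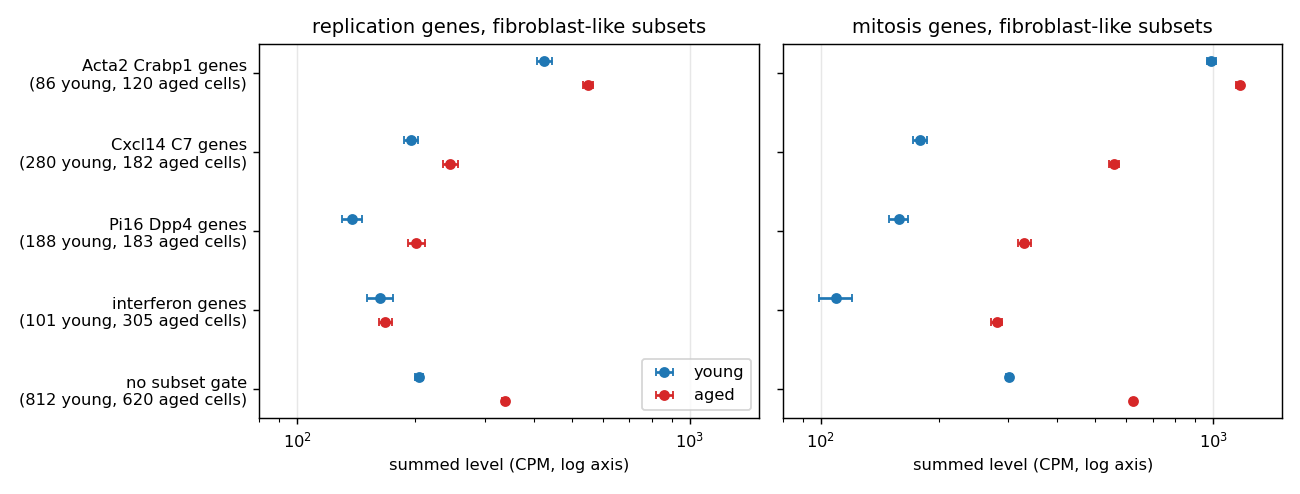
Summed levels of the replication genes (left) and mitosis genes (right) in 5 groups of fibroblast-like cells, in CPM on a log axis; points are the young and aged libraries and bars are 95% Poisson intervals that cover counting error only. On the log axis, where a gap shows the ratio, the gap for mitosis genes is widest in the Cxcl14 C7 group (179 against 558 CPM). It is narrowest there in the Acta2 Crabp1 group (989 against 1166 CPM).

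The ratios were also taken at a fixed mix of fibroblast-like cells, first by gated subset and then by cluster. With the subsets weighted as in the young library, the aged mitosis level was 585 CPM, a ratio of 1.90, beside 1.88 as observed, and the replication ratio was 1.43 beside 1.41. Of the class, 812 of 1507 young and 620 of 1413 aged cells lay outside every subset gate, so this mix was fixed among the gated cells and not within that remainder. Leiden clusters, built without the members and the other cell cycle genes listed, divide the whole class, and the libraries filled them unequally. Apart from histone genes, cell cycle genes outside these lists were not removed, and whether the clusters follow the cell cycle was not tested. With 8 clusters weighted as in the young library, the mitosis ratio was 1.41 and the replication ratio 1.28. Within clusters of over 100 gated cells in each library, the mitosis level was 100.4 and 251 CPM in cluster 5 (366 young and 162 aged cells; 2.50, 2.34 to 2.68), 42.8 and 145 CPM in cluster 6 (364 and 201 cells; 3.38, 3.10 to 3.69), 149 and 506 CPM in cluster 8 (249 and 386 cells; 3.39, 3.22 to 3.57) and 1062 and 1198 CPM in cluster 14 (177 and 325 cells; 1.13, 1.11 to 1.15). Cluster 14 had the highest level in each library. It held 13681 of the 20975 young and 26613 of the 42848 aged mitosis UMIs of the class. Its cells were 177 of 1507 young and 325 of 1413 aged ones. Cluster 2 went the other way, at 483 and 36.0 CPM (0.0746, 0.0448 to 0.117), in 94 young and 16 aged cells.

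In macrophage/monocyte-like cells the mitosis sum was lower in the aged library, 253 against 133 CPM (0.525, 0.498 to 0.552), and the replication sum did not differ beyond counting error, 224 CPM in each (0.998, 0.954 to 1.04). This lower sum came from few cells. The 10 young cells with most mitosis UMIs, with 65 to 581 each, held 2214 of 4001 UMIs (55.3%), whereas the 10 highest aged cells held 379 of 2342 (16.2%). Without the 10 highest cells of each library the ratio was 0.971 (0.910 to 1.04). Of those 10 young cells, 5 were in the subset with osteoclast genes (Acp5, Atp6v0d2, Ocstamp, Dcstamp) and 4 in the C1q subset. The osteoclast-gene subset had 1633 CPM in 20 young cells and 245 CPM in 6 aged cells, and without it the class ratio was 0.731 (0.691 to 0.773). By Leiden cluster, the mitosis ratio was 0.498 (0.462 to 0.536) in cluster 16, with 324 young and 480 aged cells, and from 1.05 to 1.33 in clusters 9, 15 and 19, the others with over 100 cells in each library; with clusters weighted as in the young library it was 0.718. The 10 highest young cells had a median of 46227 UMIs against 16518.5 for the class, and their fibroblast and T/NK marker lists, at 134 and 2.09 CPM, were below the class's 187 and 6.19 CPM.

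Gene by gene, 18 of 24 mitosis genes and 5 of 18 replication genes were at least 1.5-fold lower in aged macrophage/monocyte-like cells, 23 of 42 in all, and 0 were higher, against 7.68% lower and 17.5% higher of 13405 genes. The median log2 ratio of the 42 was -0.68 and that of all genes 0.22, which TMM scaling moved by -0.17. Without the 10 cells with most member UMIs in each library, 37 of the 42 had enough UMIs, with 4 higher and 3 lower. The shares over all genes were not taken for the cells that remained. In the whole class, Ccna2 went from 46 to 5 UMIs, 2.90 and 0.283 CPM (0.097, 0.030 to 0.244). Ube2c went from 181 to 24 UMIs (0.119, 0.074 to 0.183) and Cdca3 from 106 to 15 (0.127, 0.069 to 0.219). Top2a was at 33.3 and 8.83 CPM (0.265), Cdk1 at 6.31 and 2.04 (0.323), Ccnb1 at 2.21 and 0.453 (0.205), Cenpf at 5.37 and 1.13 (0.211) and Plk1 at 2.15 and 0.453 CPM (0.211). Cenpa, at 22.9 and 25.1 CPM (1.10), and Kif23 (1.05) were the mitosis genes with a ratio above 1, and both were below 1 with TMM scaling, at 0.973 and 0.928.

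The replication genes of the class split. Mcm2, Mcm3 and Mcm6 had the highest ratios, with Mcm2 at 2.71 and 3.96 CPM (1.46, 0.984 to 2.19), Mcm3 at 12.3 and 15.6 CPM (1.27, 1.05 to 1.53) and Mcm6 at 1.26. Of the other helicase subunits, Mcm5 was at 3.35 and 4.19 CPM (1.25, 0.868 to 1.82) and Mcm7 at 7.01 and 5.94 CPM (0.848, 0.643 to 1.12). Rrm2, at 3.79 and 1.42 CPM (0.373, 0.224 to 0.605), and Pclaf, at 10.8 and 4.36 CPM (0.404), were lower. Pcna alone made up about as many UMIs as the other 17 replication genes together in this class, 1784 of 3550 young and 2099 of 3954 aged, at 113 and 119 CPM (1.05, 0.990 to 1.12; 0.936 with TMM scaling).

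The share of macrophage/monocyte-like cells with several mitosis transcripts depended on depth. At 2000 UMIs it was 12 of 833 young (1.44%, 0.747 to 2.50) and 5 of 1170 aged cells (0.427%, 0.139 to 0.994), a ratio of 0.297 (0.082 to 0.905). Without thinning it was 6.92% and 7.03%, a ratio of 1.02, at median depths of 16518.5 and 12730 UMIs, and at 5000 UMIs the ratio was 0.764. In neutrophil-like cells, the background class, the share was 0.0875% (0.002 to 0.486) in the young library and 0 of 722 cells in the aged library, which allows up to 0.416%. The interval of the aged macrophage/monocyte-like share reaches below that limit. Its 5 cells held a mean of 6 mitosis and 4.8 replication UMIs, and 3 of them also had UMIs of at least 3 replication genes.

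Mki67 and Cenpa went their own way in macrophage/monocyte-like cells. Mki67 was seen in 247 young and 236 aged cells, and in 119 and 100 of them no other mitosis gene had a UMI; only 27 and 26 had at least 3 others. The Mki67 level was 82.6 CPM young and 58.6 CPM aged (0.709, 0.653 to 0.770), near the 69.5 CPM of aged fibroblast-like cells, while Ube2c, counted in the same cells, was at 11.4 and 1.36 CPM against 49.8 CPM there. Of its UMIs, 33.5% young and 14.4% aged were in cells with at least 3 other mitosis genes, against 94.0% and 96.4% in fibroblast-like cells. Cenpa was alone in 75 of 168 young and 131 of 249 aged cells, and in T/NK-like cells in 66 of 196 and 1 of 17. In contrast Ube2c was seen in 17 young and 13 aged macrophage/monocyte-like cells, 13 and 7 of which held at least 3 other mitosis genes. In neutrophil-like cells, at median depths of 5832.5 and 4410 UMIs, Mki67 was seen in 53 of 1206 young and 20 of 781 aged cells. Of these, 42 and 17 lacked any other mitosis gene.

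By subset, the lower sum lay in the C1q and osteoclast-gene cells. C1q cells, 418 young and 718 aged, went from 257 to 140 CPM (0.545, 0.509 to 0.583). Of 23 mitosis genes 20 were lower, against 6.07% of 11900 genes, and 0 higher, against 16.1%. Ube2c (0.171), Top2a (0.274) and Cdk1 (0.295) were lowest there. At 2000 UMIs, several mitosis transcripts were seen in 5 of 403 young and 4 of 671 aged C1q cells, a share ratio of 0.48 (0.095 to 2.23). Those 5 young cells held 33.3% of the subset's young mitosis UMIs at that depth. Without thinning the C1q shares were 7.18% young and 8.496% aged. Among the 10 highest cells of the class in each library, 4 young and 5 aged were C1q cells. The C1q ratio was not taken without them. Cells with Ly6c2 and Plac8, markers of recently arrived monocytes, went from 82.5 to 152 CPM (1.84, 1.51 to 2.25) on 180 and 243 UMIs, and several mitosis transcripts were seen in 1 of 136 aged cells and in 0 of 152 young cells, which allows a share of up to 1.97%. Cells with Mmp12 and Il1a stood at 129 and 115 CPM (0.890, 0.761 to 1.04).

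The T/NK-like and endothelial-like classes were small. In T/NK-like cells the replication and mitosis sums each had a ratio of 1.53, but the 10 highest of the 44 aged cells held 92.8% of the mitosis UMIs, against 54.9% for the 10 highest of 325 young cells. Several mitosis transcripts were found in 16 of 321 young (4.98%) and 6 of 43 aged cells (14.0%, 5.30 to 27.9). By Leiden cluster the libraries filled the T/NK clusters unequally, with 139 young and 54 aged cells in cluster 3 and 213 and 1 in cluster 4. Within cluster 3, over 119 young and 43 aged gated cells, the mitosis level was 1489 CPM in each library (ratio 1.0003, 0.908 to 1.10) and the replication ratio was 1.07 (0.934 to 1.23). In the whole class Mki67 was at 163 and 372 CPM, Top2a at 158 and 289 CPM and Rrm2 at 13.6 and 45.6 CPM (3.35, 1.80 to 6.04), whereas Cenpa was lower (0.636, 0.490 to 0.815) and Pcna stood at 0.873 with an interval that includes 1. Of the 35 members with enough UMIs, 22 were at least 1.5-fold higher, against 23.7% of 8812 genes, and 1 lower, against 21.1%. In endothelial-like cells the mitosis ratio was 1.34 (1.25 to 1.43) and the replication ratio 1.08 (0.991 to 1.19). Several mitosis transcripts were held by 2 of 39 young and 8 of 42 aged endothelial-like cells. The 10 highest cells of that class held 97.6% of its mitosis UMIs in the young and 95.9% in the aged library. Cells that passed no gate, 471 young and 551 aged, had mitosis levels of 755 and 466 CPM. Their ratios were 0.616 for mitosis and 0.924 for replication, with Ccnb1 at 13.3 and 2.33 CPM (0.176), Cdc20 at 0.271 and Ube2c at 0.347. Several mitosis transcripts were found in 14 of 356 young and 9 of 403 aged ungated cells. The 10 highest ungated cells held 80.2% of the mitosis UMIs in the young and 73.4% in the aged library.

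The 79 other cell cycle genes of 7 lists, grouped by role, were read beside the members. In fibroblast-like cells 36 of 79 were at least 1.5-fold higher and 1 lower, with a median ratio of 1.46; of all genes tested in this class, 11.4% were higher and 8.46% lower. Of condensin, spindle and kinesin genes 12 of 13 were higher, led by the cytokinesis kinesin Kif20a, at 3.71 and 8.15 CPM (2.20), with the condensin subunit Smc4 lowest (1.13). Of kinetochore and checkpoint genes 7 of 11 were higher, from Sgo2a (1.26) to Nuf2 (1.85), and of cytokinesis and exit genes 2 of 8, from Cit (0.917) to Ect2 (1.98). Of the origin and helicase genes 5 of 11 were higher, from the kinase Cdc7 (0.902) to Gmnn, the inhibitor of Cdt1 (2.00), and of the fork enzymes 5 of 14, from Pola1 (1.16) to Fen1 (1.80). Among 12 transcriptional regulators, 4 were higher: Foxm1, which drives mitosis genes, at 2.23 and 4.80 CPM (2.15, 1.78 to 2.62), Mybl2 (1.66), Rbl1 (1.78) and E2f7 (1.63). E2f2 was lowest, at 0.775 (0.468 to 1.27).

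Of the 10 genes of the list of G1 cyclins and kinases, 1 was higher and 1 lower, with a median ratio of 1.02. Ccnd1, the D-type cyclin that growth factors induce, was the 1 gene of the 79 at least 1.5-fold lower in aged fibroblast-like cells, at 19.6 and 12.1 CPM (0.619, 0.568 to 0.674). Ccnd2 stood at 170 and 134 CPM (0.787, 0.766 to 0.809), Ccnd3 at 0.924, and Wee1, the kinase that holds back CDK1, at 6.21 and 4.15 CPM (0.668, 0.575 to 0.776). Cdc25c, the phosphatase that opposes WEE1 at mitotic entry, was the highest of that list, at 1.32 and 3.03 CPM (2.30, 1.79 to 2.97). In macrophage/monocyte-like cells 4 of the 75 genes with enough UMIs were higher and 27 lower, against 17.5% and 7.68% of all genes. The lower ones included 8 of 9 kinetochore and 9 of 13 condensin, spindle and kinesin genes. Without the 10 cells with most member UMIs in each library, 15 of the 67 genes that then had enough UMIs were higher and 6 lower. Shares over all genes were not taken without those cells, so these 2 counts have no background to be read against. In the whole class, with those cells kept, Ccnd1 was higher, at 8.46 and 15.8 CPM (1.87, 1.51 to 2.31). Foxm1 was at 23 and 13 UMIs (0.507, 0.236 to 1.04) in the whole class. Tk1, the salvage thymidine kinase, was lowest among the fork enzymes there (0.246, 0.146 to 0.399). Single genes were not compared without the 10 cells.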

How the data were processed

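The deposited matrices hold raw UMI counts per gene and barcode; per the file headers they were written by Cell Ranger 8.0.1, whereas Cell Ranger 9.0 stands in the submitters' processing notes, with STAR, Seurat 4 and the builds GRCm38 and mm10. The authors deposited 4932 young and 4379 aged barcodes with 111810068 and 107865898 UMIs. Barcodes under 500 UMIs, under 200 genes or with 15% or more mitochondrial UMIs were left out; no doublet caller was run, and cells that passed more than 1 class gate were set apart.

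Cells were gated on UMIs of marker lists per 10000 UMIs, with at least 3 markers of a class and 2 of a subset detected. The gate cuts were set after the marker distributions were seen, with 1 configuration run. The members and lists were chosen with earlier results of these data known. Counts were summed per class and library and given as CPM with exact Poisson intervals; ratios have exact conditional binomial intervals and shares Clopper-Pearson intervals, all at 95%. PCR duplicates are removed by the UMIs, and intervals and floors (3 counts) cover counting error only. A gene was called higher or lower at a ratio of 1.5 with at least 20 UMIs in both libraries together. Cells were thinned to 2000 UMIs for shares of cells. The ratio script was checked on simulated counts.

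Named in each class are the 3 members with the highest and the 3 with the lowest ratio among those with at least 50 UMIs, Mcm5, Pcna, Rrm2, Mki67, Top2a, Ccnb1, Cdk1, Cenpf and Plk1 in the main classes, and the highest and lowest gene of each of 7 pathway lists; other genes were named after their values were seen. Alternatives were TMM scaling (edgeR 4.0.16) and median-of-ratios scaling, per-cell means, other depths and thresholds, Leiden clusters as classes or as weights (scanpy 1.11.5; clusters with under 10 cells of the class in either library left out of the weights) and leaving out the 10 highest cells. Promoter windows are RefSeq's, GRCm38.p6. Python 3.11.15, numpy 2.4.6, scipy 1.17.1 and R 4.3.3 were used.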

Additional observations from a re-analysis of the deposited data

Results flagged for a closer look

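The mitosis sum had a ratio of 1.88 in fibroblast-like cells and 0.525 in macrophage/monocyte-like cells. It was picked out because the same contrast of aged against young went in opposite directions in 2 classes. The difference was not tested, since each age had 1 library, and the second value became 0.971 without the 10 highest cells of each library.

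The barcodes removed by the filter, 271 young and 169 aged, also held member transcripts above the level that 3 counts would give (5.53 and 10.4 CPM). In them the replication genes were at 35.1 CPM (young, 19 UMIs) and 59.0 CPM (aged, 17 UMIs). The mitosis genes were at 131 and 219 CPM, on 71 and 63 UMIs.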

How the results depend on the processing

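Of 92 alternative values for the main results, 42 stayed close to the value reported, 49 moved beyond its counting interval or by over 1.5 times, and 1, the share ratio of macrophage/monocyte-like cells, changed direction. The replication ratio of that class, whose interval includes 1, lay on either side of 1, from 0.872 to 1.13. In fibroblast-like cells both sums and the share ratio stayed above 1 under every alternative run, and the count of higher members stayed between 28 and 32 except at a ratio of 2, where it was 10. In macrophage/monocyte-like cells the share ratio of 0.297 became 1.02 without thinning and 0.0712 with at least 5 members. There the count of 23 lower members became 15 at a minimum of 100 UMIs and 3 without the 10 highest cells. For these counts of members in both classes, shares over all genes were not taken under the alternatives. With TMM scaling the sum ratios of replication and mitosis genes were 1.18 and 1.41 over all cells, 1.33 and 1.77 in fibroblast-like and 0.886 and 0.466 in macrophage/monocyte-like cells; with median-of-ratios scaling they were 1.19 and 1.42, 1.34 and 1.78, and 0.872 and 0.458. As means of per-cell CPM they were 1.10 and 1.21, 1.37 and 2.12, and 1.08 and 0.744. Without the 10 highest cells of each library they were 1.61 for mitosis over all cells, 1.48 and 2.17 in fibroblast-like, and 1.13 and 0.971 in macrophage/monocyte-like cells. As the median of member ratios they were 1.36 and 1.56 over all cells, 1.98 for mitosis in fibroblast-like, and 0.947 and 0.300 in macrophage/monocyte-like cells. With Leiden clusters as classes the fibroblast mitosis ratio was 1.94 and the macrophage ratios 0.936 and 0.457; with cells of more than 1 gate kept, the mitosis ratios were 1.92 and 0.622. Chosen after seeing the data were the following: without Pcna the replication ratios were 1.37, 1.49 and 0.941 in the same order, without Mki67 and Top2a the mitosis ratios were 1.59, 1.94 and 0.477, without the osteoclast-gene subset the macrophage ratios were 1.07 and 0.731, and with Leiden clusters weighted as in the young library the ratios were 1.28 and 1.41 in fibroblast-like and 1.06 and 0.718 in macrophage/monocyte-like cells. The cause of these moves was not tested. No paired analysis was possible because each age has 1 library, and for the same reason no library could be left out.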
